A study of Mus musculus with 288 samples.

Results

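The levels of 34 imprinted genes, named row by row from their established imprinting in the mouse, were read from the RNA of single mouse embryonic stem cells, out of 54230 genes named in the deposited count table, of which 29238 had a read in a cell used here. The 34 genes belong to 19 imprinted clusters, and 19 of them are usually transcribed from the copy inherited from the father, 10 from the copy inherited from the mother, and 5 are imprinted for some transcripts or tissues only. That Plagl1 is lower at the last time point was known when the genes were chosen.

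An imprinted gene is transcribed from 1 of its 2 parental copies, and the copy used is set by DNA methylation that the egg or the sperm laid down at an imprinting control region. Most such regions keep their methylation while the rest of the genome is demethylated in the early embryo, because the zinc finger protein ZFP57 binds the methylated hexamer TGCCGC there and recruits TRIM28. Mouse embryonic stem cells in 2i medium are also low in DNA methylation, and imprints can be lost in such cultures. The counts do not separate the parental alleles, so each level is that of both copies together.

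All cells were labelled as E14 embryonic stem cells of strain 129/Ola, grown on gelatine in N2B27 medium with LIF and 2 inhibitors, CHIR99021 against GSK3 and PD0325901 against MEK (2i). The medium was then changed to serum with LIF, and cells were sorted singly into 96 wells of a plate at 0 h (D0), 24 h (D1) and 48 h (D2), where the methyltransferase M.CviPI marked accessible DNA in every well before the RNA was taken for scNMT-seq, which reads RNA and DNA of the same cell. The comparisons ask how the imprinted genes are transcribed as cells leave 2i. The labels name no further culture or plate within a label, so that time, culture and plate cannot be told apart. The cells of a label are not replicates of it, and labels were compared without a test.

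Of 288 wells, 233 held a cell with more than 200000 reads on genes, more than 2000 genes and a mitochondrial share under 0.15, namely 90 in D0, 50 in D1 and 93 in D2. Total reads per cell ranged from 202157 to 43336922, with medians of 1610760 in D0, 7956160 in D1 and 2162090 in D2. The D1 cells stand apart by their sex-chromosome and Hprt transcripts: Hprt, a purine salvage gene on the X, had a read in 48 of 50 D1 cells at a mean of 207 CPM (reads scaled to a common total of 1000000 per cell), against 9 of 90 cells and 3.08 CPM in D0 and 7 of 93 cells and 2.68 CPM in D2. The summed level of 4 Y-linked genes differed likewise, with means of 22.9, 269 and 5.21 CPM in D0, D1 and D2. A D1 cell was taken to go against its label if it had no Hprt read. A D0 or D2 cell was so taken if its 4 Y-linked genes summed to over 50 CPM, and not for an Hprt read alone. By these rules 2 cells in each label went against it. Without them, the number of imprinted genes past 2-fold kept its value except in D1 over D0, where 11 in place of 10 were higher. The D1 cells thus do not match the other labels in genes that mark a cell stock, although all labels name the same line. The stock of the cells and the time point cannot be told apart here, and this bears on each value of D1 below.

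The cells carried the markers of the labelled cell type, in that all 12 pluripotency genes were read in 10% or more of the cells of each label. Their summed medians were 7598, 7006 and 10366 CPM in D0, D1 and D2, and Dppa5a alone had means of 2680, 4483 and 6841 CPM. Single genes differed in direction. In D1 over D0, 2 were at least 2-fold higher and 6 lower (Tfcp2l1, Fbxo15, Nanog, Esrrb, Klf4, Zfp42), beside 16.0% and 26.2% of all genes. In D2 over D0, 3 were higher and 4 lower (Klf4, Tfcp2l1, Sox2, Tdh), beside 12.3% and 30.1%. Of 10 fibroblast genes, 1, 3 and 1 reached 10% of the cells in D0, D1 and D2, and 5, 3 and 6 were at 0, among them Postn and Twist2 in all labels. Fbln1 supplied most of the summed level, whose range was 0 to 358, 0 to 122 and 0 to 828 CPM. In D1 over D0, Thy1 was at least 2-fold higher (means of 0.065 CPM in D0 and 2.12 CPM in D1) and Fbln1 lower (81.1 and 24.5 CPM). No gene of 7 for primitive endoderm and no gene of 6 for 2-cell-like cells reached 10% of the cells of any label. Of 7 trophectoderm genes 2, 4 and 2 did in D0, D1 and D2, of 6 mesoderm genes 2, 2 and 0, and of 6 ectoderm genes 1, 2 and 0. The summed medians of the mesoderm genes were 0 CPM in every label, and those of the ectoderm genes 0, 13.1 and 0 CPM.

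Promoters of Plagl1, Meg3, Mest and Snrpn, chosen after their values were seen to differ between labels or between cells, are shown with the ZFP57 hexamer in capitals, on either strand. RefSeq starts were available for 27 of the 34 members, as 42 windows of 300 bases (250 before and 50 after the start) in build GRCm38.p6, and for a gene with several starts the window with the most hexamers, then the most CpGs, was taken. The Plagl1 window lies at chr10:13090582-13090881 on the plus strand, inside the transcription unit of the gene, and holds 1 hexamer and 26 CpGs. That of Meg3 lies at chr12:109540746-109541045, plus strand, with 1 hexamer and 13 CpGs. The window of Mest, chr6:30737800-30738099 on the plus strand and also within the annotated gene, has 2 hexamers and 17 CpGs, and that of Snrpn, chr7:60005150-60005449 on the minus strand and within the gene, has 1 hexamer and 7 CpGs.
Plagl1: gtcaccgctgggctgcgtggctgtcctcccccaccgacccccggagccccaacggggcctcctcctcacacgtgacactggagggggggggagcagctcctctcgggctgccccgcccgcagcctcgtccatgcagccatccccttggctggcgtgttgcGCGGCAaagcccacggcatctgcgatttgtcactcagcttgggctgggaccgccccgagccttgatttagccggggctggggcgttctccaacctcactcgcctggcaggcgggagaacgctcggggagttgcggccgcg
Meg3: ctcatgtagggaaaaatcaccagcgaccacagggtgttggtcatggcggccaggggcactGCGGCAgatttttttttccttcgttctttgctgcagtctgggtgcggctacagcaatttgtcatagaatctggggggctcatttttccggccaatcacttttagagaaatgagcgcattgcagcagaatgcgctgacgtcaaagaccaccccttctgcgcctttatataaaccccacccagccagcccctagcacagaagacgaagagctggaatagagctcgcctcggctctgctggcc
Mest: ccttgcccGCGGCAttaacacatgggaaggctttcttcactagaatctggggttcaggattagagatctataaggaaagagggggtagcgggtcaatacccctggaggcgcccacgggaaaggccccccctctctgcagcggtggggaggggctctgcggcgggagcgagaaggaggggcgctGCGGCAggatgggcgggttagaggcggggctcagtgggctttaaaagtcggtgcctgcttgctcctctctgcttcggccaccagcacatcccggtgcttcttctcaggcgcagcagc
Snrpn: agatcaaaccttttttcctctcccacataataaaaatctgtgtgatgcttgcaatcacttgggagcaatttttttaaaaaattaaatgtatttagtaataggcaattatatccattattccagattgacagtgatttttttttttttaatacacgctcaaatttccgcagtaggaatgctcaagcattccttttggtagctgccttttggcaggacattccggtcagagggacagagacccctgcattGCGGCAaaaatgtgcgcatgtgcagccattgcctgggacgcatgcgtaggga
At least 1 hexamer was present in 13 of the 42 windows (31%), belonging to 12 members, against 11.6% of all 32851 RefSeq windows of this length. The members' windows had a median of 15.5 CpGs, and all windows a median of 7. Some windows overlap, such as a pair of Mest windows. A match of letters does not show binding, and no methylation was read here.

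Cells of D2 had fewer genes with a read than those of D0 and D1 at the same depth, and the imprinted genes shared this. At 200000 reads drawn from each cell (thinned cells, called equal depth from here on), the median D0 cell had a read on 7805.5 genes, the median D1 cell on 8019.5 and the median D2 cell on 3943. Of the 34 imprinted genes, a median of 15 (range 3 to 20) had a read in a D0 cell, 17.5 (4 to 21) in a D1 cell and 9 (3 to 15) in a D2 cell. Per 1000 genes detected this came to medians of 1.93, 2.21 and 2.24. The summed level of the 34 genes had medians of 2161, 1899 and 2140 CPM, with ranges of 311 to 5758, 586 to 5374 and 181 to 8291 CPM, which overlap widely.

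**Figure D1:**
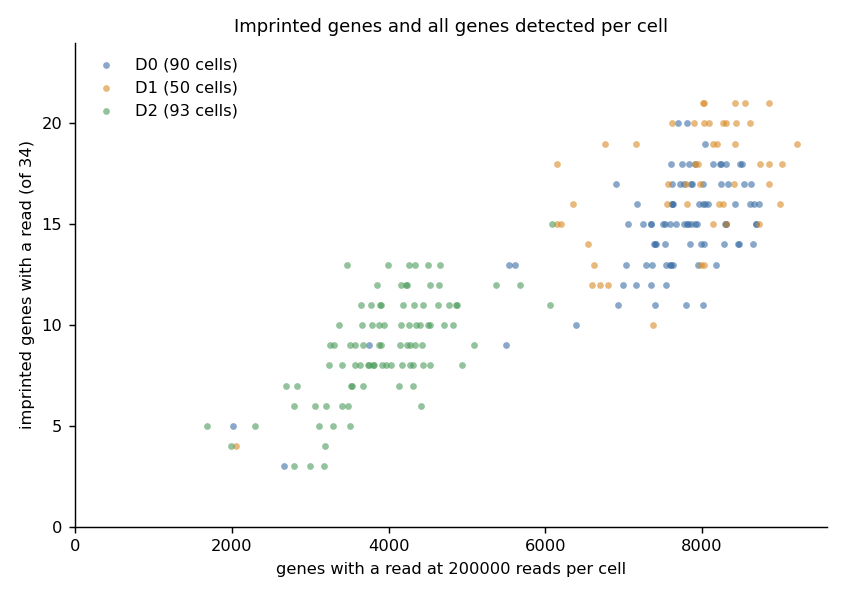
Imprinted genes with a read (vertical axis, of 34) against all genes with a read (horizontal axis) in each cell thinned to 200000 reads, with 1 point per cell coloured by label. D2 cells lie at the lower left, with a median of 9 imprinted genes and 3943 genes, and D0 and D1 cells at the upper right.

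The share of cells with a read therefore has to be read against that of all genes. Among genes read in 10% or more of the thinned cells of either label, 90.1% of all genes had a lower share of cells in D2 than in D0, as did 21 of 26 imprinted genes that met the limit. From D0 to D1 the share was lower for 43.6% of all genes and for 9 of 28 imprinted genes, and from D1 to D2 for 93.05% and 27 of 27. A gene can meet the limit through the label in which it is high, so these counts describe the genes that met it and not all members. The genes at or near 0 in every label (H19, Igf2, Airn, Zim1, Dlk1, Peg13) met it in no comparison.

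**Figure D2:**
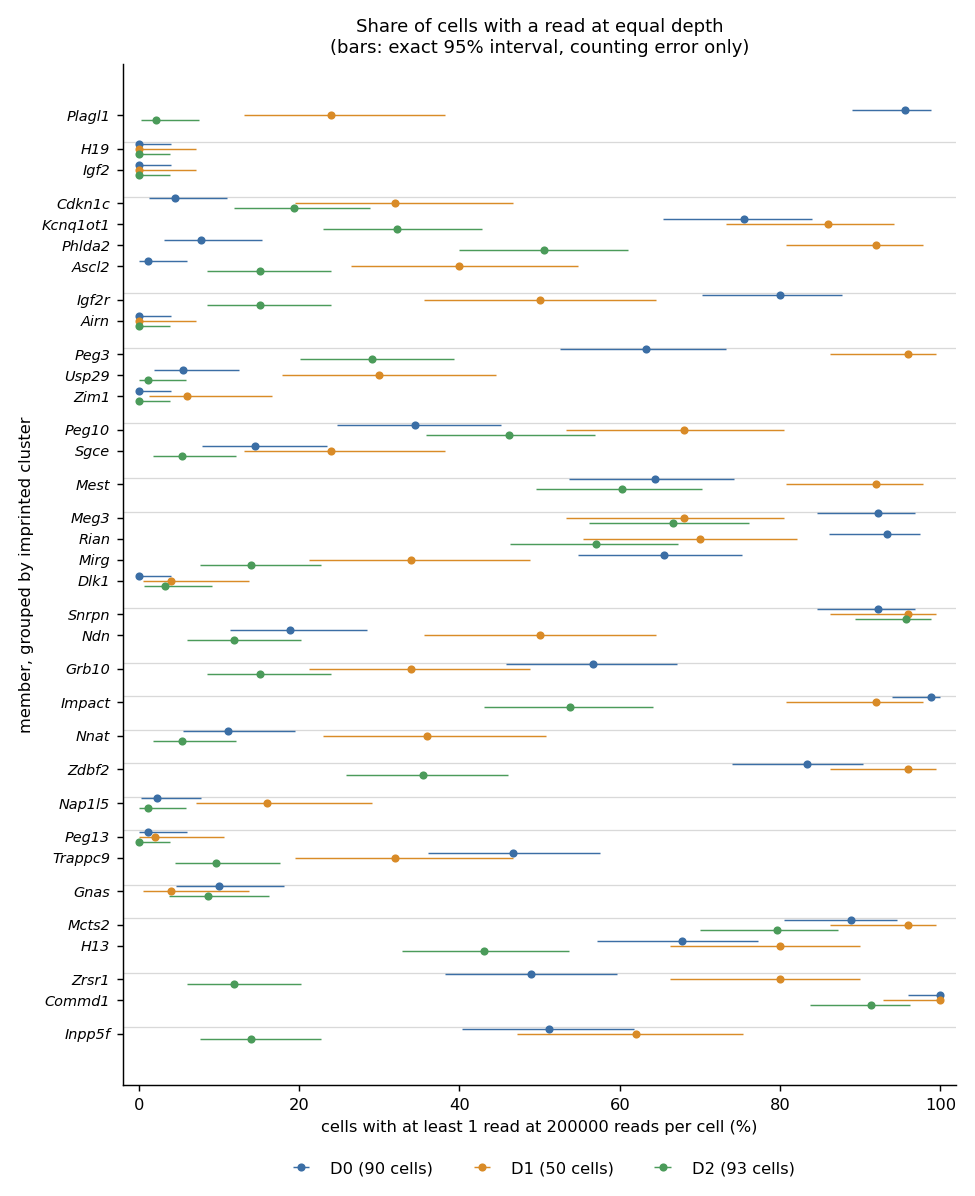
Share of cells (horizontal axis, %) with at least 1 read of each of the 34 imprinted genes at 200000 reads per cell, grouped by cluster, with 1 point per label and exact 95% binomial intervals for counting error. Plagl1 goes from 95.6% in D0 to 2.15% in D2, Snrpn stays between 92.2% and 96%, and H19 and Igf2 are at 0%.

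Levels were compared as log2 ratios of the mean CPM over cells with 1 CPM added to each mean, which understates the difference of low genes, and a gene was called past 2-fold with no test behind the call. In D2 over D0, 7 of 26 imprinted genes were at least 2-fold higher, where 12.3% of all 12389 genes were, and 3 were at least 2-fold lower, where 30.1% of all genes were. In D1 over D0, 10 of 28 were higher beside 16.0% of all 13992 genes, and 7 were lower beside 26.2%. In D2 over D1, 5 of 27 were higher beside 16.8% of all 13189 genes, and 7 were lower beside 22.9%. The median log2 ratio of the imprinted genes was 0.11 in D2 over D0, 0.38 in D1 over D0 and 0.36 for D2 over D1, and that of all genes -0.27, -0.22 and -0.10. Both medians moved with the setting. In D2 over D0 they were 0.56 for the members and -0.03 for all genes with TMM scaling factors, and 0.012 and -0.40 in plate columns 1 to 6. In D1 over D0 they were 0.66 and -0.23 in plate columns 1 to 6, and 0.15 and -0.22 in columns 7 to 12. In D2 over D1 they were -0.11 and -0.24 in plate columns 1 to 6, and 0.78 and 0.16 without the filter on cells. The comparisons share cells in pairs, so that they are not independent of each other.

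**Figure D3:**
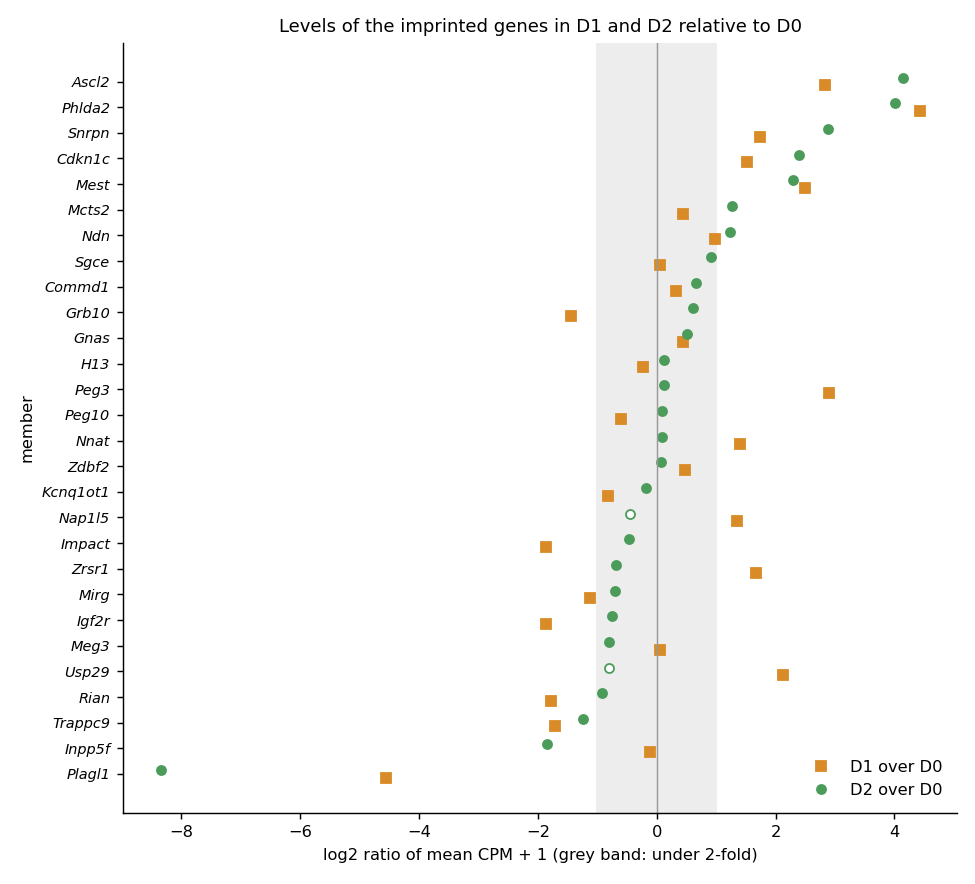
Log2 ratio of mean CPM + 1 (horizontal axis) in D1 over D0 (squares) and D2 over D0 (circles) for the imprinted genes that met the limit on cells in either comparison, ordered by the D2 ratio; an open symbol marks a gene under the limit in that comparison. Plagl1 lies at -8.34 in D2 and -4.55 in D1, and Ascl2 and Phlda2 at 4.15 and 4.01 in D2.

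By parental copy, the 19 genes usually transcribed from the paternal copy had 13 above the limit in D2 over D0, of which 4 were higher (Snrpn, Mest, Mcts2, Ndn) and 1 lower (Plagl1), where 12.3% and 30.1% of all genes were. In D1 over D0, 7 of 15 were higher (Peg3, Mest, Usp29, Snrpn, Zrsr1, Nnat, Nap1l5) and 2 lower (Plagl1, Impact), beside 16.0% and 26.2% of all genes. Of the 10 genes usually transcribed from the maternal copy, 8 were above the limit, and 3 of them were higher in D2 over D0 (Ascl2, Phlda2, Cdkn1c) and none lower. The same 3 were higher in D1 over D0, and 4 were lower (Igf2r, Rian, Grb10, Mirg). In D2 over D1, 2 of 15 paternal genes were higher (Impact, Snrpn) and 6 lower (Plagl1, Usp29, Peg3, Zrsr1, Nap1l5, Nnat), and 3 of 8 maternal genes were higher (Grb10, Ascl2, Igf2r) and none lower, beside 16.8% and 22.9% of all genes. Of the 12 alternatives, 6 kept Ascl2 past 2-fold there, and 7 each kept Igf2r and Nnat. The summed paternal genes had medians of 1360, 1487 and 1472 CPM in D0, D1 and D2, and the summed maternal genes 492, 232 and 171 CPM. The maternal means were 582, 318 and 411 CPM, so that D2 lay above D1 by the mean and below it by the median. Impact made up 37.6% of the paternal mean in D0, Peg3 32.1% in D1 and Snrpn 31.98% in D2, while Rian made up 59.7% of the maternal mean in D0, Meg3 39.6% in D1 and Rian 44.6% in D2.

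Per kb of exon, which allows levels of different genes to be set side by side, Impact led in D0 with a mean of 114 CPM per kb, followed by Mcts2 with 93.95, Plagl1 with 44.97 and Snrpn with 37.2 CPM per kb. In D1, Mcts2 (128 CPM per kb) and Snrpn (125 CPM per kb) led, before Mest with 62.9 and Peg3 with 40.2 CPM per kb. In D2, Snrpn had 276, Mcts2 226, Impact 82.5 and Mest 54.7 CPM per kb. Plagl1 thus came after Impact and Mcts2 in D0. The lengths join the exons of all annotated transcripts of a gene, so the order is approximate. Snrpn shares 34.1% of its exon bases with other genes, and the reads of Mcts2 are uncertain, as given below.

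Plagl1 (chr10:13060504-13131694, plus strand, GRCm38), a zinc finger transcription factor that can arrest the cell cycle and that acts on other imprinted genes, was abundant in D0 and nearly unread in D2. In D0 its level ranged from 0 through a median of 244 to 2027 CPM, with a mean of 352 ± 397 CPM (SD between cells, n = 90 cells). In D1 the range was 0 to 265 CPM with a median of 0 and a mean of 14.05 ± 44.4 CPM (n = 50), and in D2 it was 0 to 6.06 CPM with a mean of 0.085 ± 0.655 CPM (n = 93). Of the D2 cells 91 had no read of it, none lay above the D0 median, and 86 of 90 D0 cells lay above the highest D2 cell. At equal depth, 86 of 90 cells (95.6%, 95% interval 89.01% to 98.8%) had a read in D0, 12 of 50 cells (24%, 95% interval 13.1% to 38.2%) in D1 and 2 of 93 cells (2.15%, 95% interval 0.262% to 7.55%) in D2. Before thinning, 85995 reads fell on the gene in D0, 8158 in D1 and 22 in D2.

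The log2 ratio of Plagl1 was -8.34 in D2 over D0, -4.55 in D1 over D0 and -3.79 for D2 over D1. Over the alternative scalings, filters and plate sides the ratio of D2 over D0 lay between -10.89 and -5.16, and the extremes were those with 0.1 and 10 CPM added. Leaving out each cell in turn moved it between -8.43 and -8.27, while without 1 cell the ratio of D1 over D0 was -5.15 and that of D2 over D1 -3.19. D1 was uneven, since 32 of its 50 cells had no read and 1 lay above the D0 median. Without the 2 cells of each label that went against it, the means were 356, 14.1 and 0.087 CPM.

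**Figure D4:**
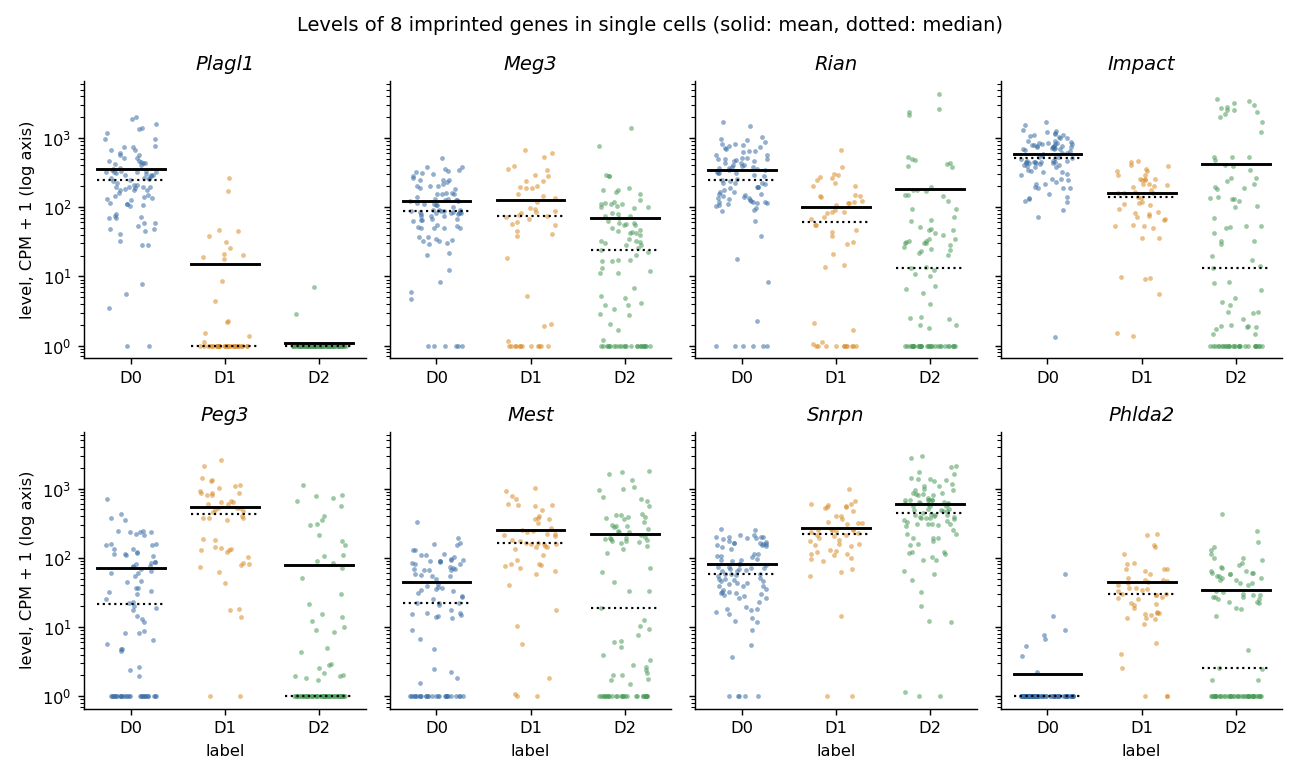
Level of 8 imprinted genes (vertical axis, CPM + 1, log axis) in each cell, with 1 point per cell, 90 in D0, 50 in D1 and 93 in D2; solid lines mark means and dotted lines medians. Plagl1 has no read in 91 of 93 D2 cells, Snrpn lies above the D0 maximum in 67 D2 cells, and Impact in D2 is spread from 0 to 3665 CPM.

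On distal chromosome 12, Meg3 (chr12:109541001-109571726), Rian (chr12:109603940-109661716) and Mirg (chr12:109729764-109749460) lie in order on the plus strand of GRCm38 and are transcribed from the maternal copy, Rian as a host of small nucleolar RNAs and Mirg of microRNAs. The locus is known to become silent in some embryonic and induced stem cell lines. Meg3 had a mean of 121 ± 105 CPM in D0 (median 86.7, highest 506), 126 ± 161 CPM in D1 (median 72.3, highest 668) and 68.98 ± 170.1 CPM in D2 (median 23.02, highest 1391), from 0 in each label. The labels overlapped, and the ratios of 0.06 in D1 and -0.80 in D2 over D0 were under 2-fold, the second at -1.13 without 1 cell. Rian had means of 347 ± 317, 100.1 ± 127 and 183 ± 613 CPM, with medians of 248, 60.9 and 12.4. Its ratio was -1.79 in D1 over D0, past 2-fold in all 12 alternatives, and -0.92 in D2 over D0, or -1.33 without 1 cell. Mirg had means of 20.1, 8.66 and 11.98 CPM, and its ratio of -1.13 in D1 over D0 was under 2-fold in plate columns 1 to 6 and with 10 CPM added. In D2 over D0 the ratio of Mirg was -0.70, and -1.72 without 1 cell.

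Cells without a read of these 3 RNAs were seen in each label, and their share was higher in D1 and D2. From D0 to D1, 43.6% of all genes had a lower share of cells with a read. From D0 to D2, 90.1% did, and the median share over genes was 63.3% in D0 and 19.4% in D2. Meg3 was read in 83 of 90 D0 and 62 of 93 D2 cells at equal depth, and Rian in 84 and 53. Whether the D2 share of cells without a read goes beyond this general loss of detection was not tested. At equal depth 4 of 90 D0 cells had no read of Meg3, Rian or Mirg (4.44%, 95% interval 1.22% to 10.99%), against 15 of 50 D1 cells (30%, 17.9% to 44.6%) and 21 of 93 D2 cells (22.6%, 14.6% to 32.4%). A read of all 3 was found in 57 D0, 17 D1 and 6 D2 cells. In D1 the cells without a read had a median of 8134 detected genes, and the others one of 8010. In D2 they had 3301 against 4161.5 genes and in D0 6966 against 7816.5. At full depth 4 cells in D0, 9 in D1 and 16 in D2 had no read. The D1 cells without a read when thinned had at most 1.04 CPM of Meg3 and 1.10 CPM of Rian at full depth, and those of D2 at most 10.1 and 1.43 CPM. The median total of these D1 cells was 14482800 reads against 5555000 in the others.

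Meg3 and Rian went together from cell to cell in D0 and D1. In D1 both had a read in 34 of 50 cells, neither in 15, and Rian alone in 1. In D0 both were read in 81 of 90 cells and neither in 4, and in D2 both in 43 of 93, Meg3 alone in 19, Rian alone in 10 and neither in 21. Spearman correlations of their CPM across the cells of a label were 0.60 in D0, 0.85 in D1 and 0.30 in D2. They share the plate, and their correlation with the number of detected genes was 0.27 and 0.31 in D0, -0.04 and -0.03 in D1 and 0.30 and 0.23 in D2, where the pair itself stood at 0.30. In each label the correlation of Meg3 with Rian was the highest among all pairs of members read in 50% or more of the cells of the label.

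**Figure D5:**
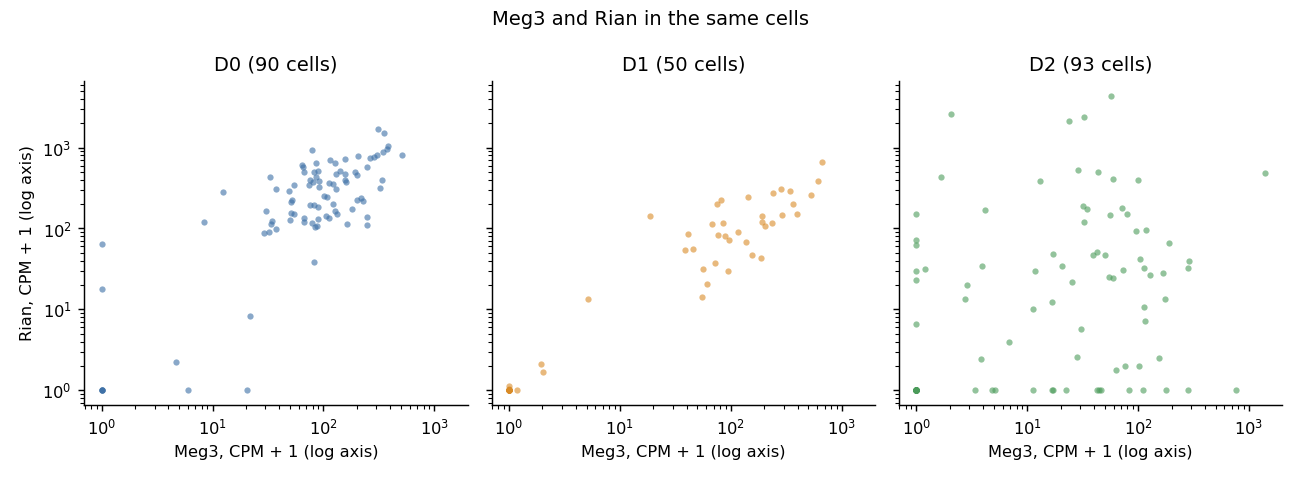
Level of Rian (vertical axis) against that of Meg3 (horizontal axis), both in CPM + 1 on log axes, with 1 point per cell and a panel per label. In D1 the cells fall into a group at or near 0 for both genes and a group with both, and in D2 19 of 93 cells had only Meg3 and 10 only Rian at equal depth.

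Of the paternal genes of the locus, Dlk1 was read in few cells. Dlk1, a transmembrane protein related to Notch ligands, had a read in 0 of 90 D0 cells at equal depth, which allows up to 3.33% of cells with a read at that depth, in 2 of 50 D1 cells and in 3 of 93 D2 cells, with a highest cell of 116 CPM. At full depth 1 D0 cell held 2 reads. Rtl1, a retrotransposon-derived gene of the locus that is not among the 34, had means of 12.1, 7.75 and 3.88 CPM and is transcribed opposite to an antisense RNA of the maternal copy, so its reads cannot be assigned to a strand here.

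In the Kcnq1ot1 domain of distal chromosome 7, Phlda2, Ascl2 and Cdkn1c, which are maternal and protein-coding, were higher in D1 and D2 than in D0, while the paternal noncoding RNA was not past 2-fold. Of other genes of the domain, not among the 34, Tssc4 (41.5, 49.9 and 61.4 CPM in D0, D1 and D2), Nap1l4 (194, 219.5 and 215 CPM) and Cd81 (336, 280.4 and 493 CPM) were not past 2-fold in any comparison. Slc22a18, at 1.12, 2.74 and 0.059 CPM, was lower in D2 over D1, and Kcnq1 was at 0 in D0 and D2. Kcnq1ot1 (chr7:143203458-143296549, minus strand), which silences its neighbours in cis on the paternal copy, had means of 170.5 ± 237, 95.99 ± 89.9 and 151 ± 615 CPM with medians of 97.4, 73.4 and 0, and ratios of -0.82 and -0.17 in D1 and D2 over D0. The D2 mean rests on few cells, since 57 of 93 had no read and the highest had 4129 CPM. Phlda2 (chr7:143501545-143503150), which limits placental growth, was read in 7 of 90 cells (7.78%, 95% interval 3.18% to 15.4%) in D0, 46 of 50 cells (92%, 95% interval 80.8% to 97.8%) in D1 and 47 of 93 cells (50.5%, 95% interval 39.97% to 61.1%) in D2. Its means were 1.10 ± 6.30, 44.1 ± 48.1 and 32.9 ± 59.6 CPM, and the median of D0 was 0, that of D1 29.1 and that of D2 1.55 CPM. The ratios were 4.42 in D1 and 4.01 in D2 over D0, past 2-fold in all 12 alternatives.

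Ascl2 (chr7:142966829-142969264), a basic helix-loop-helix factor of the placenta, had a read in 1 of 90 (1.11%) D0 cells, 20 of 50 (40%) D1 cells and 14 of 93 (15.1%) D2 cells, with means of 0.269 ± 1.61, 8.08 ± 12.9 and 21.5 ± 66.7 CPM. It was past 2-fold in D1 (2.84) and D2 (4.15) over D0, the first not with 10 CPM added. In D2 over D1 its ratio was 1.31, under 2-fold in 6 alternatives and down to 0.80. In D2 77 of 93 cells had no read and 12 lay above the highest D0 cell. Cdkn1c (chr7:143458339-143461050), an inhibitor of cyclin-dependent kinases, had means of 0.397 ± 1.86, 3.02 ± 6.28 and 6.39 ± 18.4 CPM and ratios of 1.52 and 2.40, both under 2-fold with 10 CPM added and the first also without the filter on cells. Exons of another gene on the opposite strand cover 30.7% of its exon bases, so part of its reads is uncertain. Ascl2 is also 1 of 7 trophectoderm markers, whose summed level had medians of 23.2, 9.81 and 0 CPM and highest cells of 230, 180 and 1237 CPM in D0, D1 and D2. Of these, Cdx2 had means of 1.59, 2.83 and 0.017 CPM, and Elf5 was at 0 in D1 and D2. Tfap2c had 29.99, 6.995 and 12.1 CPM and Eomes 2.52, 1.002 and 0.039 CPM, both past 2-fold lower in D2 over D0 (-1.24 and -1.76). Krt7 had 1.04, 0.859 and 11.99 CPM with 4 of 93 D2 cells holding a read and the highest at 902 CPM, and Hand1 had 0, 1.77 and 0.0061 CPM.

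Phlda2 and Ascl2 were read together in some cells. At equal depth 42 of 93 D2 cells had Phlda2 alone, 9 Ascl2 alone and 5 both, and in D1 27 of 50 had Phlda2 alone, 1 Ascl2 alone and 19 both. Their Spearman correlation was -0.19 in D2 and 0.26 in D1, and values of this size in sparse counts are no finding.

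Neither gene of the H19 and Igf2 cluster was read. H19, a maternally transcribed noncoding RNA, and Igf2, the paternally transcribed growth factor, had 0 reads in all 288 wells, which for counting error alone leaves room for reads in up to 3.33% of the cells in D0, 6% in D1 and 3.23% in D2. The exons of Igf2 overlap those of other genes over 64.5% of their bases and those of H19 over 9.15%, and how the authors' counting treated such bases is not given in the sources used here, so a 0 may not mean that the RNA was absent for either gene.

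Igf2r (chr17:12682406-12769664, minus strand), the maternally transcribed receptor that clears IGF2, was lower in D1 and read in fewer D2 cells. It had means of 59.3 ± 67.5 in D0, 15.5 ± 26.6 in D1 and 34.7 ± 151 CPM in D2, and medians of 37.05, 5.63 and 0 CPM. A read was found in 72 of 90 (80%) D0 cells, 25 of 50 (50%) D1 cells and 14 of 93 (15.1%) D2 cells. The share in D2 was lower than in D0 for 90.1% of all genes. Its ratio of -1.87 in D1 over D0 was past 2-fold in all 12 alternatives, and that of -0.76 in D2 over D0 was not, but lay at -1.23 without 1 cell. The ratio of 1.11 in D2 over D1 rested on few cells, since 76 of 93 D2 cells had no read and it lay at -2.37 in plate columns 1 to 6 and at 0.64 without 1 cell. Airn, the paternal noncoding RNA antisense to it, had 2 reads in 1 well.

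In the Peg3 cluster, the paternal genes Peg3 and Usp29 were highest in D1. Peg3 (chr7:6703892-6730431, minus strand), a paternally transcribed zinc finger protein, had means of 70.5 ± 114, 535 ± 540.0 and 77.3 ± 205 CPM, with medians of 20.2, 434 and 0 CPM and highest cells of 703, 2551 and 1122 CPM. It had a read in 57 of 90 (63.3%) D0 cells, 48 of 50 (96%) D1 cells and 27 of 93 (29.03%) D2 cells, and 45 of 50 D1 cells lay above the D0 median. The ratio was 2.91 in D1 over D0 and -2.78 for D2 over D1, both past 2-fold in all 12 alternatives, and 0.13 in D2 over D0. Usp29, a ubiquitin-specific protease read from the same bidirectional promoter, was also highest in D1, with means of 0.810, 6.88 and 0.037 CPM and a ratio of 2.12 in D1 over D0 that was under 2-fold with 10 CPM added. Zim1, a maternal zinc finger gene next to them, had a read in 3 of 50 D1 cells and in none of D0 or D2, which allows up to 3.33% and 3.23%. Zfp264, a further zinc finger gene of the cluster that is not among the 34, was highest in D0, with means of 20.1, 4.21 and 2.53 CPM. Within D1, Peg3 correlated at 0.51 with the number of detected genes.

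Mest (chr6:30723547-30748465, plus strand), a paternally transcribed enzyme of the alpha/beta hydrolase fold, was higher in D1 and D2. Its means were 43.04 ± 55.1, 248 ± 245 and 216 ± 379.8 CPM, with medians of 21.3, 164 and 17.5 CPM. The D1 cells lay above the D0 median in 43 of 50 cases, and in D2 46 of 93 did while 28 had no read. At equal depth 64.4% of D0, 92% of D1 and 60.2% of D2 cells had a read, so that the D2 mean was higher and the share was not. The ratios were 2.50 and 2.30 over D0, in all 12 alternatives past 2-fold. Exons of Copg2 on the other strand overlap 23.1% of its exon bases, and Copg2 itself was lower in D1, with means of 106, 29.5 and 80.9 CPM.

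Peg10 and Sgce, paternal neighbours on proximal chromosome 6, were not past 2-fold in any comparison with all cells. Peg10, a retrotransposon-derived gene needed for the placenta, had means of 61.3 ± 363, 40.03 ± 47.8 and 65.5 ± 132 CPM, and 1 D0 cell at 3273 CPM carried much of the D0 mean, without which the ratio in D2 over D0 went from 0.09 to 1.34, past 2-fold. Sgce, which encodes epsilon-sarcoglycan, had means of 5.61, 5.89 and 11.5 CPM and a read in 13 of 90 (14.4%) D0 cells, 12 of 50 (24%) D1 cells and 5 of 93 (5.38%) D2 cells. Its ratio of 0.91 in D2 over D0 was 1.202 without 1 cell, and that of 0.85 for D2 over D1 was 1.02.

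Snrpn was higher in D1 than in D0 and higher still in D2, where it led the 34 genes per kb of exon. Snrpn (chr7:59982495-60140219, minus strand), which encodes a core protein of the spliceosome and heads the cluster linked to Prader-Willi syndrome in humans, ranged from 0 to 255 CPM in D0 with a median of 57.2, from 0 to 995 in D1 with a median of 219.9, and from 0 to 2964 in D2 with a median of 436. The means were 80.3 ± 67.1, 269 ± 205 and 595 ± 565 CPM. Of the D2 cells, 84 of 93 lay above the D0 median and 67 above the highest D0 cell. It was read in 83 of 90 cells (92.2%, 95% interval 84.6% to 96.8%) in D0, 48 of 50 cells (96%, 95% interval 86.3% to 99.5%) in D1 and 89 of 93 cells (95.7%, 95% interval 89.4% to 98.8%) in D2, while 90.1% of all genes had a lower share in D2 than in D0.

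The ratio of Snrpn was 1.73 in D1 and 2.88 in D2 over D0, past 2-fold in all 12 alternatives, and 1.14 in D2 over D1, under 2-fold with reads summed over cells, also with either set of scaling factors, and in plate columns 1 to 6. Other genes, Snurf among them, share 34.1% of its exon bases. Ndn, a growth suppressor of the same cluster, had means of 7.78 ± 21.2, 16.4 ± 24.4 and 19.8 ± 67.6 CPM and a read in 17 of 90 (18.9%) D0 cells, 25 of 50 (50%) D1 cells and 11 of 93 (11.8%) D2 cells, so that its mean and its share differed in direction between D0 and D2. Its ratio of 1.24 in D2 over D0 was 0.92 without 1 cell and also under 2-fold in plate columns 7 to 12 and with 10 CPM added. Of other genes of the cluster, not among the 34, Mkrn3 (-3.11), Snhg14 (-1.14) and Ube3a (-1.05) were past 2-fold lower in D2 over D0. Magel2 and Atp10a did not meet the limit there.

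Impact (chr18:12955852-12992950, plus strand), a paternally transcribed inhibitor of the GCN2 stress kinase, was lower in D1 and spread over a wider range in D2 than in D0. In D0 it ranged from 0.342 through a median of 516 to 1675 CPM with a mean of 585 ± 347 CPM, and every D0 cell had a read. In D1 it ranged from 0.390 through 137 to 458 CPM with a mean of 161 ± 124 CPM, and none of 50 cells lay above the D0 median. In D2 the median was 12.2 and the highest 3665 CPM with a mean of 423 ± 908 CPM, and 28 of 93 cells had no read while 12 lay above the highest D0 cell. At equal depth 98.9% of D0 and 53.8% of D2 cells had a read, and 90.1% of all genes had a lower share in D2 than in D0. The ratio was -1.85 in D1 over D0, past 2-fold in all 12 alternatives, and -0.47 in D2 over D0. That of 1.39 in D2 over D1 turned to -0.071 as a difference of mean ln values, and was under 2-fold without the filter on cells and in plate columns 1 to 6.

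Grb10 (chr11:11930508-12038683, minus strand), a maternally transcribed adaptor that damps insulin receptor signalling, had means of 33.02 ± 58.5, 11.5 ± 23.3 and 51.2 ± 215 CPM, and medians of 8.001, 0 and 0 CPM. Its ratio was -1.44 in D1 over D0 and 2.06 for D2 over D1, the former under 2-fold with TMM scaling factors, in plate columns 7 to 12 and with 10 CPM added, and the latter past it in all 12 alternatives and at 1.42 without 1 cell. The D2 level rested on few cells, since 74 of 93 had no read and the highest reached 1758 CPM. At equal depth a read was found in 56.7% of D0, 34% of D1 and 15.1% of D2 cells, so the share was lowest in the label with the highest mean.

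Several imprinted genes are retrogenes or small transcripts that lie within an intron of a host gene, and these were read beside their hosts. Mcts2 (chr2:152687035-152687946), within H13, had means of 85.7 ± 66.7, 117 ± 82.7 and 207 ± 193 CPM, and in D2 66 of 93 cells lay above the D0 median. Its ratio in D2 over D0 was 1.26, past 2-fold in all 12 alternatives. H13, a signal peptide peptidase, had means of 20.5, 17.4 and 22.5 CPM and was not past 2-fold in any comparison. Zrsr1 (chr11:22972005-22976496), within Commd1, was highest in D1, with means of 10.2 ± 17.2, 34.9 ± 42.5 and 6.01 ± 22.9 CPM and ratios of 1.67 in D1 over D0 and -2.36 for D2 over D1, both past 2-fold in all 12 alternatives. Commd1, which acts in copper balance, had a read in every D0 and D1 cell and in 85 of 93 (91.4%) D2 cells, with means of 65.04 ± 36.7, 81.5 ± 53.5 and 104 ± 88.2 CPM. Mcts2 and Zrsr1 are copies of X-linked genes with which the counting could have split reads, so their values are uncertain.

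The other intronic genes were read in fewer cells. Nnat, which encodes a small membrane protein of the endoplasmic reticulum and lies within Blcap, had means of 1.25, 4.94 and 1.38 CPM and a read in 10 of 90 (11.1%) D0 cells, 18 of 50 (36%) D1 cells and 5 of 93 (5.38%) D2 cells. Nap1l5, a relative of nucleosome assembly proteins within Herc3, had means of 0.777, 3.53 and 0.294 CPM. Both were highest in D1, with ratios of 1.40 and 1.35 over D0 that were under 2-fold in 3 of the 12 alternatives each. Peg13, a noncoding RNA within Trappc9, had a read in 1 D0, 1 D1 and 0 D2 cells. Trappc9, a subunit of a vesicle tethering complex, was lower in D1 (-1.71) and D2 (-1.24) over D0, with means of 24.5 ± 39.7, 6.81 ± 12.8 and 9.83 ± 42.2 CPM, and the D2 ratio was under 2-fold in plate columns 1 to 6 and with 10 CPM added.

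Zdbf2, a paternally transcribed zinc finger gene of chromosome 1, had means of 81.4 ± 89.1, 113 ± 97.2 and 85.97 ± 215 CPM and was not past 2-fold, while its median was 54.4, 94.9 and 0 CPM. Inpp5f, an inositol phosphatase gene that holds an imprinted internal transcript, had means of 23.3 ± 68.5, 21.6 ± 34.2 and 5.78 ± 33.1 CPM. It was lower in D2 over D0 (-1.84) and over D1 (-1.74), but the ratio to D0 was -0.32 in plate columns 1 to 6 and -2.83 without 1 cell. The ratio to D1 was under 2-fold without the filter on cells and in plate columns 1 to 6, down to -0.89, and was -2.73 without 1 cell. Gnas, which encodes the stimulatory G protein alpha subunit, had means of 0.386, 0.879 and 0.966 CPM. Its 679 reads over the 288 wells are few for a gene that most cells use, and 21.97% of its exon bases overlap other genes, so these values are uncertain.

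Across the cells of a label the members were mostly uncorrelated. Among members read in 50% or more of the cells, the median Spearman correlation of CPM was 0.0083 over 120 pairs of 16 genes in D0, 0.087 over 136 pairs of 17 genes in D1 and 0.0058 over 28 pairs of 8 genes in D2. Values above 0.3 were found for 2 pairs in D0 (Meg3 with Rian at 0.60 and Rian with Mirg at 0.41), for 16 in D1 and for none in D2. After Meg3 with Rian, the highest in D1 were Peg3 with Mest (0.62) and Peg3 with Snrpn (0.55). These 3 genes also correlated with the number of detected genes in D1, at 0.51 for Peg3, 0.37 for Mest and 0.34 for Snrpn, and the part of depth of detection in the pairs was not tested.

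Other imprinted genes, listed from general knowledge with earlier results of these data known, were more often past 2-fold lower than higher in D2 over D0. Of 54 such genes 32 met the limit in D2 over D0, of which 2 were higher and 17 lower beside 12.3% and 30.1% of all genes, with a median log2 ratio of -1.06 beside -0.27 for all genes. The 2 higher genes were Rhox5, an X-linked homeobox gene with means of 72.99 and 248 CPM in D0 and D2, and Gab1, a signalling adaptor (256 and 712 CPM). The largest ratios downward were those of Mkrn3 (-3.11), Ago2 (-2.99), Glis3 (-2.78), Axl (-2.66) and Zfp264 (-2.58). In D1 over D0, 35 met the limit, 3 were higher (Rhox5 at 2.94, Gatm at 2.03, Blcap at 1.11, which turned to -0.36 without 1 cell) and 12 lower beside 16.0% and 26.2% of all genes, led by Pon2 (-3.75), Sfmbt2 (-3.44), Pon3 (-3.29), Cobl (-2.93) and Glis3 (-2.75). In D2 over D1, 5 of 30 were higher and 7 lower, beside 16.8% and 22.9%.

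Among 18 listed genes for factors that protect or erase imprints, Naa10 was higher and 6 were lower in D2 over D0. With 16 above the limit, these counts stand beside 12.3% and 30.1% of all genes, and the median ratio was -0.77. Zfp57, the hexamer-binding protein, had means of 433 ± 242, 344 ± 231 and 214 ± 262 CPM and a ratio of -1.01 in D2 over D0, at the limit of 2-fold and at -0.98 without 1 cell. Its partner Trim28 had means of 433, 404 and 273 CPM. The lower genes also included Ctcf (-2.64), the insulator protein that binds the unmethylated H19 control region, Smchd1 (-2.02), Uhrf1 (-1.74), Zfp445 (-1.49), a second imprint-binding zinc finger protein, and Arid4a (-1.12, or -0.98 without 1 cell).

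In D1 over D0, 6 of the 16 factors were lower beside 26.2% of all genes, led by Tet2 (-2.10), a methylcytosine oxidase, and Uhrf1 (-1.45), which brings the maintenance methyltransferase Dnmt1 to replicating DNA. Uhrf1 had means of 913 ± 392, 333 ± 212 and 273 ± 517 CPM, and Dnmt1 had 172 ± 134, 72.2 ± 51.5 and 141 ± 290.3 CPM, with a ratio of -1.24 in D1 and -0.29 in D2 over D0. Dppa3, which keeps Uhrf1 from DNA, had means of 91.5, 35.8 and 69.5 CPM and a ratio of -1.33 in D1 over D0, or -2.35 without 1 cell. The remaining genes past 2-fold were Zfp445 (-1.37) and Zfp42 (-1.30). Naa10, an N-terminal acetyltransferase, was higher in both D1 (1.26) and D2 (1.28). In D2 over D1, 4 of 16 factors were higher (Tet2 at 2.67, Zfp42 at 1.82, Setdb1 at 1.06, Tet1 at 1.05), beside 16.8% of all genes. There 5 were lower (Arid4a at -1.86, Ctcf at -1.67, Hells at -1.19, Smchd1 at -1.11, Arid4b at -1.06), beside 22.9%. Setdb1, Tet1 and Arid4b were under 2-fold without 1 cell. Tet2 (0.57) and Zfp42 (0.52) were not past 2-fold in D2 over D0.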

How the data were processed

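Single-cell RNA of scNMT-seq of E14 cells at 0, 24 and 48 h after release from 2i was used, with 96 wells per label. The authors aligned the reads with HISAT2 (GRCm38, per the processing notes) and deposited raw gene counts, whole numbers, for every well. The annotation and the counting tool are not given in the sources used here. Rows with the same name were summed. Cells were filtered as in the report. The study's methods print the mitochondrial limit as 0.15%, which 1 of the 233 cells would have passed, so it was read as a share of 0.15, and the number of cells kept differs from the study's. Counts were scaled to CPM per cell, and means gave each cell equal weight. A gene entered a comparison if 10% or more of the cells of either label, thinned to 200000 reads, had a read of it. Shares have exact Clopper-Pearson 95% intervals, which, like the limit of 3 counts for a 0, cover counting error only, as there are no molecular identifiers. Exon lengths and overlaps are those of GENCODE M21, promoters those of RefSeq. The calculation was tested on simulated data. Python 3.11.15, numpy 2.4.6, pandas 2.3.3, scipy 1.17.1 and, for TMM factors, edgeR 4.0.16 in R 4.3.3 were used. All members were named. Of the other lists, up to the 5 largest ratios in each direction in D2 over D0 and D1 over D0 were named, and 5 chosen factors in any case. For D2 over D1 only the factors past 2-fold were named, and the other imprinted genes were counted. The members and lists were chosen with earlier results of these data known.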

Additional observations from a re-analysis of the deposited data

Results flagged for a closer look

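Wells that failed the filter on cells entered no comparison, but they held reads of the imprinted genes. More than 3 reads, the number that a count of 0 allows, fell on 9 members in the 6 failing wells of D0, on 18 members in the 46 failing wells of D1 and on 3 members in the 3 failing wells of D2. In D0 the most reads fell on Rian (40 of 114562), and Plagl1 had 22 reads, or 192 CPM of the summed wells. In D1 Peg3 led with 126 of 357724 reads (352 CPM), and Plagl1 had 2 reads. In D2 Peg3 had 3636 of 1459044 reads (2492 CPM) and Plagl1 0. These wells had medians of 443, 1437 and 303146 reads, and no control wells were used.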

How the results depend on the processing

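No paired analysis was possible because the labels give no replicate numbers. Over the alternatives, 75 of 90 counts of imprinted genes past the fold stayed within 1.5 times their value, while 761 of 1215 log2 ratios moved by more than their counting interval and 74 of 336 shares of cells left theirs. In D2 over D0, 4 in place of 7 were higher with a read asked for in 25% of the cells, and in place of 3, 5 were lower with summed reads and 1 at 4-fold. In D1 over D0, 5 in place of 10 were higher with 10 CPM added and at 4-fold, and 1 in place of 7 lower at 4-fold. In D2 over D1, 8 in place of 5 were higher without a filter on cells, 9 in plate columns 7 to 12, 3 with summed reads, TMM factors, median-of-ratios factors or 10 CPM added, and 1 at 4-fold, while 4 in place of 7 were lower with 10 CPM added and at 4-fold. Of the genes past 2-fold, 6 of 10 in D2 over D0, 10 of 17 in D1 over D0 and 4 of 12 in D2 over D1 stayed so in all 12 alternatives. Signs turned in D2 over D1 for Igf2r (-2.37 in plate columns 1 to 6, and -0.0063 as a mean ln difference) and Impact (-0.071 as a mean ln difference). Without 1 cell, genes under 2-fold with all cells passed it for Zrsr1 in D2 over D0 (-1.02), Ndn in D1 over D0 (1.21) and, for D2 over D1, Cdkn1c (1.07), Meg3 (-1.19) and Rian (1.04). In the lists of other imprinted genes and of factors, an alternative chosen after seeing the data left out each cell in turn. Calls were lost for 3 of 26 genes in D2 over D0, 2 of 22 in D1 over D0 and 6 of 21 for D2 over D1, and Blcap in D1 over D0 turned to -0.36. The cause was not tested. TMM factors moved the median of all genes from -0.27 to -0.03 in D2 over D0, and that of the members from 0.11 to 0.56. Plate and time cannot be told apart, and a gene read in few D2 cells has a mean that 1 cell can move.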
